A study of Mus musculus with 6 samples.

Results

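Disease-associated microglia are a state of the brain's resident macrophages in which a set of genes rises around damage. This account follows 9 of its genes, Trem2, Tyrobp, Cd9, Cd63, Axl, Cst7, Spp1, Igf1 and Fth1, through hippocampal immune cells of mice given the learned helplessness paradigm. The 9 genes were taken by name from the 32429 genes of the raw UMI tables (UMI, unique molecular identifier, 1 count per captured RNA molecule). Each was read as CPM (the usual depth-scaled count, here the gene's UMIs relative to all UMIs summed over a cell type) and as the share of cells with at least 1 UMI, in each library, deposited cell type and deposited cluster.

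The mice carry the strain label BC57BL/6, and neither age nor sex is given in the labels. Non-shocked mice were the controls. In the acute paradigm mice received 180 inescapable foot shocks of 0.3 mA and were tested for escape, which divided them into acute helpless (Dep24) and acute non-helpless (ND24) animals. In the chronic paradigm the same procedure was followed by weekly retests for 3 weeks, giving chronic non-helpless (ND4w), chronic non-recovered (NR4w) and chronic recovered (R4w) groups, the last being mice that were helpless and later were not. All groups shared the sort: hippocampi without meninges and choroid plexus, Percoll enrichment and live CD45+ cells, sequenced with a droplet 5′ kit. Each group had 1 library, and the labels do not say how many animals it holds. No spread between replicates exists, so no test between groups was possible, and every interval below is an exact 95% interval that covers counting error only.

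As background, TREM2 is a lipid-sensing receptor of microglia and macrophages, and TYROBP (DAP12) is the adaptor through which it signals. In the usual scheme of these cells an early step raises Tyrobp, Fth1, Apoe and other genes while homeostatic genes such as P2ry12 fall. A later, TREM2-dependent step raises Axl, Cst7, Spp1, Igf1, Lpl and others. Trem2, Tyrobp, Cd9, Cd63 and Fth1 are also expressed by resting microglia, whereas Axl, Cst7, Spp1 and Igf1, called the late genes below, are scarce in microglia of the undamaged adult brain.

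The tables held 3005 cells and 14097425 UMIs, of which 2721 cells were deposited as microglia. Microglia numbered 552 in the non-shocked, 569 in the acute non-helpless, 630 in the acute helpless, 499 in the chronic non-helpless, 99 in the chronic non-recovered and 372 in the chronic recovered library. The authors' batch numbers put acute helpless cells in batch 1, acute non-helpless cells in batch 2 and the chronic cells in batch 3, while non-shocked microglia came from batch 2 (123 cells) and batch 3 (429 cells). Acute helpless cells share no batch with another library: there, batch cannot be told apart from group. Across 2 libraries, 5 cell barcodes recurred. All 8 microglial markers were detected in every library, with 32333 to 42162 CPM in sum, and with 28788 CPM in the batch 2 part of the non-shocked library.

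Units that stood apart were the chronic non-recovered library and the batch 2 part of the non-shocked library. Their microglia had medians of 2497 and 905 UMIs, against 3676 to 4579.5 in the shocked libraries other than the non-recovered one (3906 in non-shocked batch 3). Ribosomal protein genes made up under 2.5% of the UMIs in 53.5% of non-recovered and 64.2% of batch 2 non-shocked microglia, in 34.3% of non-shocked batch 3 microglia and in 8.96% to 15.9% of the other 4 libraries' microglia. Of 7 neutrophil genes, 6 were detected in non-recovered microglia and together stood at 22472 CPM. The same list summed to 981 CPM in chronic non-helpless microglia and to at most 17.2 CPM elsewhere, with all 7 genes at 0 in both acute libraries. Of 6 monocyte markers, 4 were detected in non-recovered microglia (S100a4 and Vcan were at 0). They summed to 885 CPM there and to 5.21 to 15.4 CPM in the other libraries. The part of this foreign RNA in the values below was not tested, except that leaving out 16 microglia with few microglial or many neutrophil UMIs kept all 45 member ratios within their intervals.

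Trem2, the receptor gene (GRCm38 chr17:48346401-48352276, protein coding), was found in nearly every microglial cell and varied little. Its level in microglia was 2300.1 CPM (2232 to 2370) in the non-shocked, 2432 in the acute non-helpless, 2465 in the acute helpless, 2496 in the chronic non-helpless, 1694 (1551 to 1847) in the chronic non-recovered and 2432 in the chronic recovered library. The upper 4 libraries lay within counting error of their neighbours in this order, the non-shocked library was just below them, and the non-recovered library was lowest. In the non-shocked library batch 2 stood at 1880.2 CPM and batch 3 at 2343 CPM. A UMI of Trem2 was seen in 94.9% of all microglia, against 11.4% of 44 T cell barcodes nearly free of microglial RNA. It was seen in 0 of 17 B cells, which with 3 counts as the limit allows a share of up to 17.6%. Those T cells had a median of 5249 UMIs, the B cells 4670 and the microglia 3987.

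Tyrobp, the adaptor gene (chr7:30413782-30417582, protein coding), showed the widest spread of the abundant members over the 6 libraries, just above Fth1 (1.88-fold). With the non-shocked library split by batch, Fth1 had the wider spread, 2.51-fold against 2.36-fold. Microglia had 2067 CPM in the non-shocked, 2719.5 in the acute non-helpless, 2895 (2831 to 2960) in the acute helpless, 2316 in the chronic non-helpless, 1507 (1372 to 1651) in the chronic non-recovered and 2471 in the chronic recovered library. Both acute libraries were above the others, and no neighbours in the order had a ratio whose interval held 1. The highest and lowest libraries differed 1.92-fold, but the 2 batches of the non-shocked library alone differed 1.76-fold (1.53 to 2.02), at 1227 and 2153 CPM.

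Cd9 and Cd63 encode tetraspanins, membrane organizers that are also abundant on endosomes and secreted vesicles. Cd9 (chr6:125460266-125494760) stood at 1222 CPM in non-shocked mice, 1218 in acute non-helpless, 1117 in acute helpless, 1304 in chronic non-helpless, 793 (696 to 900) in chronic non-recovered and 1355 in chronic recovered microglia. The non-recovered library was again lowest, and non-shocked cells of batch 2 were lower still, at 648 CPM (534 to 779). Cd63 (chr10:128896231-128912822) stood at 362 CPM in non-shocked mice, 372 in acute non-helpless, 397 in acute helpless, 351 in chronic non-helpless, 267 (212 to 331) in chronic non-recovered and 309 in chronic recovered microglia. Of the neighbours in this order, only chronic non-helpless and chronic recovered microglia had an interval that left out 1, at 1.14-fold (1.02 to 1.27).

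Fth1 (chr19:9980600-9985111) encodes the ferritin heavy chain, which stores iron. Its level was 1688 CPM in non-shocked mice, 2570.45 (2505 to 2637) in acute non-helpless, 2242 in acute helpless, 2103 in chronic non-helpless, 1365 (1237 to 1503) in chronic non-recovered and 2216 in chronic recovered microglia. The acute non-helpless library stood highest, and non-shocked microglia of batch 2, at 1026 CPM, lay below every library. Fth1 was not particular to microglia: B cells, which had no UMI of Trem2, held 2029 CPM of it, and all 17 had a UMI.

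**Figure D1:**
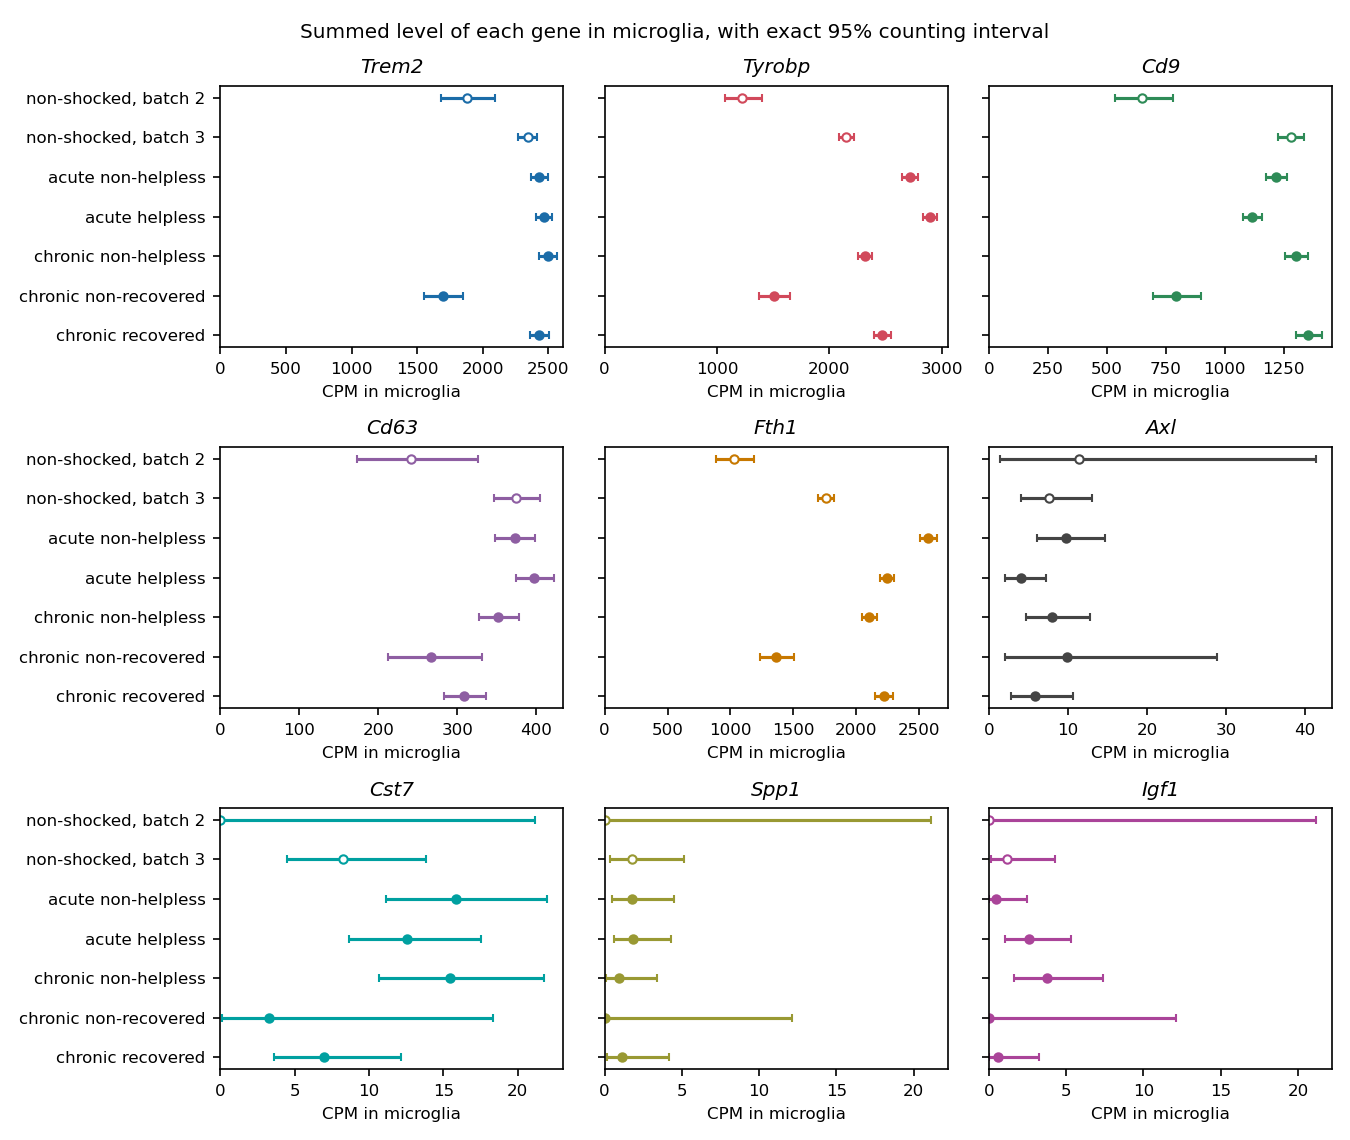
Level of each of the 9 genes in microglia (x axis, CPM) by library (y axis), the non-shocked library split by batch (open points); lines are exact 95% Poisson intervals. Trem2, Tyrobp, Cd9, Cd63 and Fth1 are lowest in chronic non-recovered and non-shocked batch 2 microglia, and no point of the 4 late genes is above the 15.9 CPM of Cst7 in acute non-helpless microglia.

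The late genes were close to absent. Axl, a receptor tyrosine kinase that binds phosphatidylserine through GAS6 (chr7:25756500-25788924), had 78 UMIs over all 2721 microglia. It stood at 8.01 CPM in non-shocked mice, 9.70 in acute non-helpless, 4.06 in acute helpless, 7.98 in chronic non-helpless, 9.87 in chronic non-recovered (3 UMIs, all in 1 cell) and 5.79 in chronic recovered microglia. All neighbours in this order lay within counting error. Acute helpless and acute non-helpless microglia, with 11 and 22 UMIs, had a ratio of 0.418 (0.183 to 0.900). Without the cells of deposited cluster 5, described below, it was 1.10 (0.389 to 3.34), from 11 and 7 UMIs. A UMI of Axl was seen in 2.13% of microglia (1.62 to 2.75), no more than in the 44 T cells nearly free of microglial RNA (1 cell, 2.27%).

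Cst7, a cystatin that inhibits cathepsin C and related proteases (chr2:150570415-150578944), was the most often seen late gene, with 130 UMIs in 94 microglia. Its level was 7.47 CPM (4.09 to 12.5) in non-shocked mice, 15.9 (11.1 to 22.0) in acute non-helpless, 12.5 in acute helpless, 15.5 in chronic non-helpless, 3.29 in chronic non-recovered (1 UMI) and 6.95 (3.59 to 12.1) in chronic recovered microglia. Neighbours in this order did not differ beyond counting error. Recovered over chronic non-helpless microglia, with 12 and 33 UMIs, gave 0.449 (0.211 to 0.892), and without cluster 5 0.621 (0.277 to 1.33). Non-shocked microglia of batch 2 had no Cst7 UMI, which with 3 counts as the limit allows up to 17.2 CPM.

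Spp1, the secreted phosphoprotein osteopontin (chr5:104435111-104441053), had 16 UMIs and Igf1, the growth factor (chr10:87858265-87937047), 19 UMIs in all microglia together. Spp1 was at 1.60 CPM in non-shocked mice, 1.76 in acute non-helpless, 1.84 in acute helpless, 0.938 in chronic non-helpless and 1.16 in chronic recovered microglia. For Igf1 the corresponding levels were 1.07, 0.441, 2.58, 3.75 and 0.579 CPM. Neither had a UMI in the non-recovered library, where 3 counts would be 9.87 CPM, so a level like that of the other libraries was not detectable there. Spp1 was in 0.441% of microglia and in 1 of the 44 T cells nearly free of microglial RNA (2.27%).

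Detection of several late genes in 1 cell was rare. After each cell was thinned to 1000 UMIs, 0 of 2600 microglia held UMIs of at least 2 of the 4 late genes. With 3 counts as the limit this allows a share of up to 0.115% (exact upper bound 0.142%). At least 1 late gene was held by 44 cells (1.69%). Without thinning, 21 of 2721 microglia (0.772%, 0.478 to 1.18) held at least 2: 10 in the acute non-helpless, 5 in the chronic non-helpless, 3 each in the non-shocked and acute helpless and 0 in the non-recovered and recovered libraries. Axl with Cst7 was the commonest pair. T cell barcodes, with a median of 13381 UMIs, gave 18 of 161 (11.2%) without thinning and 0 of 157 with it.

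The same genes in the other sorted cells show which of them mark microglia here. Many barcodes of other types carried microglial RNA, so levels are given for barcodes with under 0.5% of their UMIs in 7 microglial markers. Trem2 stood at 2410 CPM (2381 to 2439) in microglia, 163 in 15 monocytes, 136 in 15 macrophages, 27.5 in 44 T cells and 11.3 in 19 NK cells. Tyrobp, which also serves activating NK receptors, was highest in NK cells, at 4351 CPM (3928 to 4808) against 2501 CPM in microglia and 2320 CPM in monocytes. Cd9 stood at 1220.0 CPM in microglia and at 361 CPM or less in the others. Cd63 stood at 451 CPM in the T cells, from 10 of 44 cells, against 359.7 CPM in microglia, and was at 0 in NK cells and B cells. Fth1 was higher in macrophages, at 3241 CPM, and monocytes, at 2929.7 CPM, than in microglia, at 2160.2 CPM.

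Axl and Cst7 were higher in other sorted cells than in microglia. Axl stood at 155 CPM (91.7 to 244) in those monocytes and 68.0 CPM in the macrophages, against 7.08 CPM in microglia. Cst7 stood at 293 CPM (191 to 429) in NK cells and 153 CPM in T cells, against 11.8 CPM in microglia, and at 0 in the monocytes, macrophages and B cells. Spp1 rested on single cells elsewhere: its 6 UMIs in NK cells nearly free of microglial RNA all came from 1 cell. These levels pool all libraries, since T cells reached 20 cells in only 3 libraries and the rarer types in none.

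**Figure D2:**
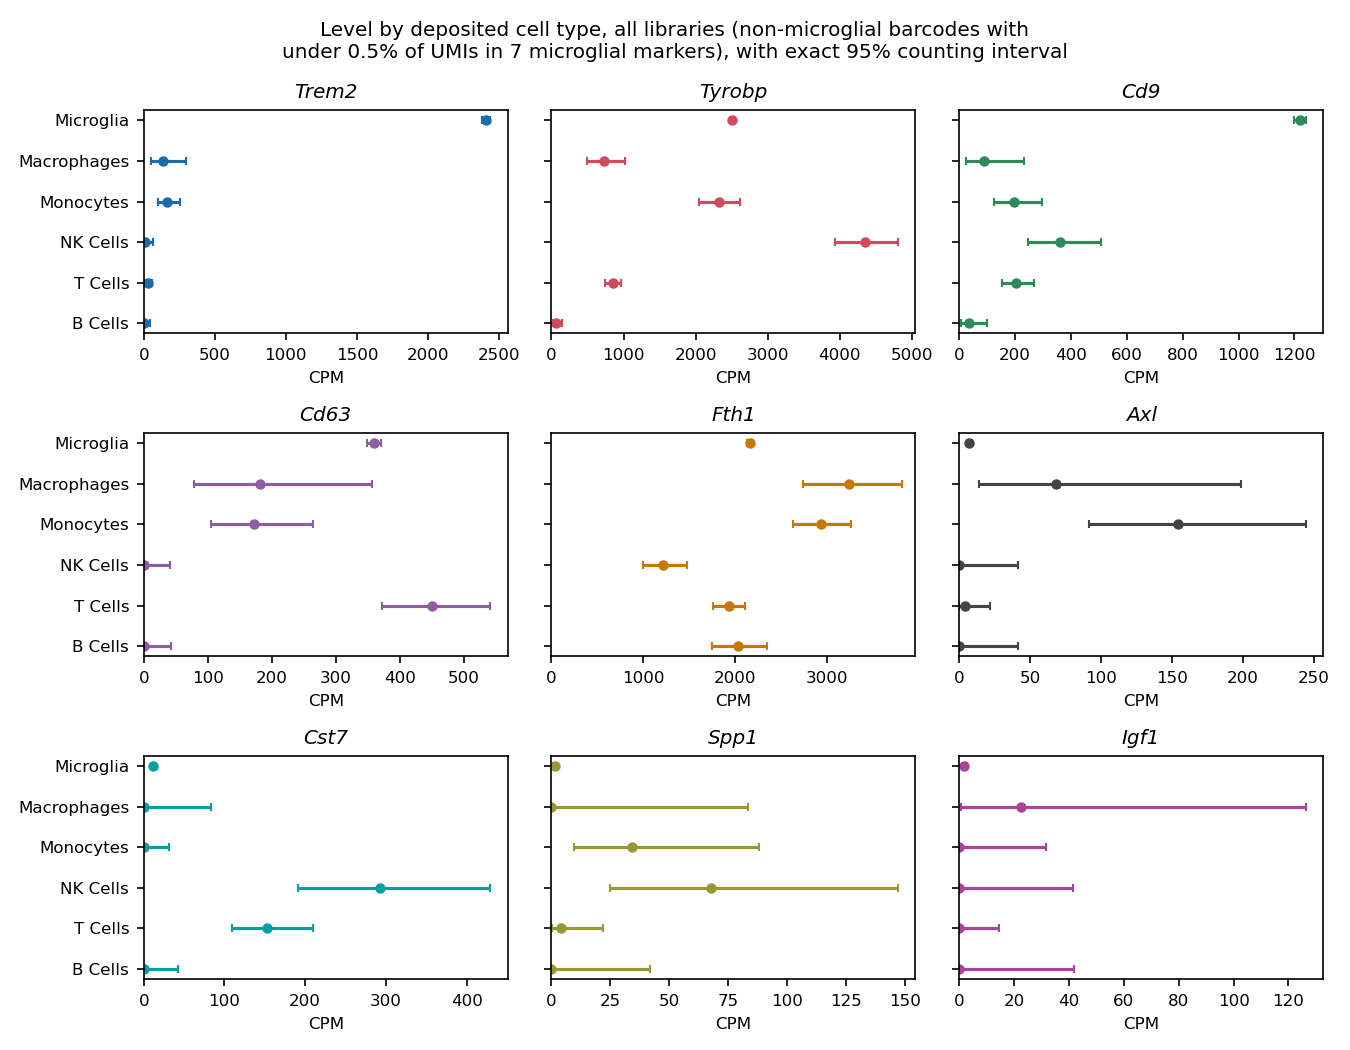
Level of each gene (x axis, CPM) by deposited cell type (y axis), all libraries pooled, with exact 95% Poisson intervals; barcodes other than microglia are those with under 0.5% of UMIs in 7 microglial markers. Trem2 and Cd9 are highest in microglia, Cd63 in T cells, Axl in monocytes and macrophages, and Tyrobp and Cst7 in NK cells.

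Between libraries, only the 5 abundant members could be compared, since the other 4 had a mean under 20 CPM in every comparison. A gene is counted as apart when its CPM differ at least 1.5-fold. The first question is whether members separate helpless from non-helpless mice after the acute paradigm. Of the 5 measured members 0 were 1.5-fold apart, beside 15.6% of all 6493 measured genes. Acute helpless over acute non-helpless microglia gave 1.01 (0.978 to 1.05) for Trem2, 1.06 (1.03 to 1.10) for Tyrobp, 0.917 (0.870 to 0.966) for Cd9, 1.07 (0.974 to 1.17) for Cd63 and 0.872 (0.841 to 0.904) for Fth1. Without cluster 5 the ratio was 1.27 (1.15 to 1.41) for Cd63 and 0.967 (0.930 to 1.01) for Fth1. These libraries share no batch.

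Against non-shocked microglia the acute results depended on which non-shocked cells were used. Acute helpless over all non-shocked microglia gave 0 of 5 members apart (28.2% of all measured genes), with Tyrobp at 1.40 and Fth1 at 1.33. Acute non-helpless over the 123 non-shocked microglia of its own batch gave 4 of 5 higher, Fth1 2.51-fold (2.16 to 2.92), Tyrobp 2.22-fold (1.93 to 2.55), Cd9 1.88-fold (1.56 to 2.29) and Cd63 1.55-fold (1.13 to 2.16), with Trem2 at 1.29. In that comparison 19.7% of all 6995 measured genes were as much higher, and 30.6% of the 749 genes with a mean of at least 200 CPM, the range of these members. Against non-shocked microglia of both batches 1 of the 4 was still apart, Fth1. The batch 2 cells are the shallow, often ribosome-poor ones described above. Among microglia with at least 2.5% ribosomal UMIs in both libraries 3 of the 4 were still apart, Fth1 1.66-fold (1.40 to 1.98), Cd9 1.60-fold (1.26 to 2.07) and Tyrobp 1.52-fold (1.30 to 1.79), beside 13.2% of 6671 measured genes as much higher, while Cd63 stood at 1.19 (0.818 to 1.80) and Trem2 at 1.05. Without cluster 5 of the acute non-helpless library Cd63 stood at 1.30 (0.948 to 1.82), and the other 3 were still apart.

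After the chronic paradigm the question is how mice that stayed helpless differ from those that recovered and from those never helpless. The non-recovered library had lower levels of 3 of 5 members than either. Relative to recovered microglia, Cd9 was 1.71-fold lower (1.496 to 1.96), Tyrobp 1.64-fold (1.49 to 1.81) and Fth1 1.62-fold (1.47 to 1.80), beside 11.5% of 6973 measured genes that were as much lower, or 17.2% of those with a mean of at least 200 CPM. Trem2 was 1.44-fold lower and Cd63 1.16-fold (0.915 to 1.48). Relative to chronic non-helpless microglia the same 3 genes were 1.64-fold, 1.54-fold and 1.54-fold lower, beside 10.9% of 7005 measured genes, or 13.4% of those of at least 200 CPM. Without cluster 5 of the non-helpless library Fth1 was 1.38-fold lower (1.25 to 1.54). Both comparisons share the 99 non-recovered cells.

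Recovered and chronic non-helpless microglia had 0 of 5 members 1.5-fold apart, beside 5.67% of all measured genes. Recovered over non-helpless gave 0.974 (0.935 to 1.01) for Trem2, 1.07 for Tyrobp, 1.04 for Cd9, 0.878 (0.785 to 0.983) for Cd63 and 1.05 for Fth1. Without cluster 5 Cd63 turned to 1.13 (0.994 to 1.28), and Fth1 stood at 1.17. Against the non-shocked microglia of batch 3, 0 of 5 members were apart in chronic non-helpless microglia (14.5% of all measured genes) and 0 of 5 in recovered microglia (14.0%). The largest of those ratios was Fth1 at 1.26 (1.20 to 1.32) in recovered microglia. In non-recovered microglia 1 of 5 was lower, Cd9 by 1.62-fold (1.41 to 1.85), beside 8.62% of all measured genes and 3.44% of those of at least 200 CPM. These 3 comparisons share the same non-shocked cells.

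**Figure D3:**
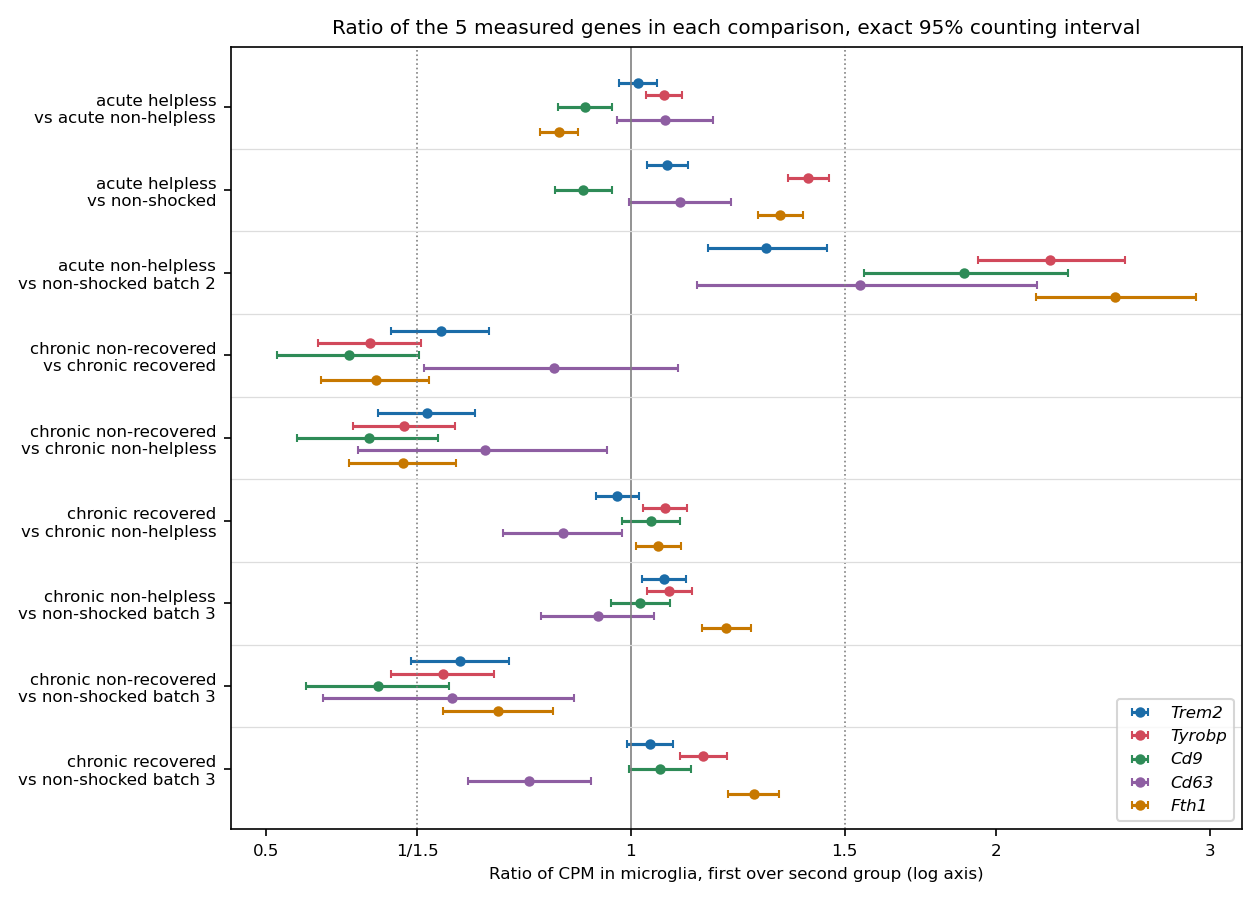
Ratio of CPM in microglia for Trem2, Tyrobp, Cd9, Cd63 and Fth1 in the 9 comparisons (log axis; first library named over second), with exact 95% conditional intervals; dotted lines mark 1.5-fold. Ratios past 1.5-fold appear only where non-shocked batch 2 or the non-recovered library enters.

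The content of ribosomal protein RNA moved with the members inside every library. Microglia with under 2.5% ribosomal UMIs had lower levels of all 5 abundant members than the other microglia in 6 of 6 libraries. The difference was 1.32-fold to 1.67-fold for Trem2, 3.07-fold to 5.24-fold for Tyrobp, 1.41-fold to 2.70-fold for Cd9, 1.42-fold to 5.93-fold for Cd63 and 3.98-fold to 6.70-fold for Fth1. Tyrobp, for example, stood at 801 against 2459 CPM in the non-shocked library and at 389 against 2037 CPM in the non-recovered one. Ribosome-poor cells were also shallower, with medians of 1484 to 2097 UMIs against 3843 to 4725. The share of all measured genes that were lower in these cells is not given here. Whether the members differed more than other genes was not tested. All values here are parts of the cell's total, so a gene's level also depends on what else the cell contains.

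Among microglia with at least 2.5% ribosomal UMIs the highest and lowest of the 6 libraries differed 1.32-fold for Trem2, 1.48-fold for Tyrobp, 1.41-fold for Cd9, 1.28-fold for Cd63 and 1.46-fold for Fth1. With the non-shocked library split by batch, batch 2 was lowest for Tyrobp, Cd9 and Fth1, and the ranges widened to 1.64-fold, 1.77-fold and 1.66-fold, against 2.36-fold, 2.09-fold and 2.51-fold over all microglia of these 7 units. In this class the non-recovered library had 46 cells and was still lowest for Trem2 (1945 CPM), Tyrobp (2037), Cd9 (979.8) and Fth1 (1809), but not for Cd63, which was lowest in recovered microglia (317 CPM). Its log2 ratio to recovered microglia was -0.34 for Trem2, -0.32 for Tyrobp, -0.50 for Cd9, 0.20 for Cd63 and -0.34 for Fth1. With that restriction 0 members were 1.5-fold apart between the non-recovered library and any other chronic or batch 3 library, whereas 3 were between acute non-helpless and batch 2 non-shocked microglia, as given above. For the non-recovered comparisons the share of all measured genes apart under the restriction is not given here.

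**Figure D4:**
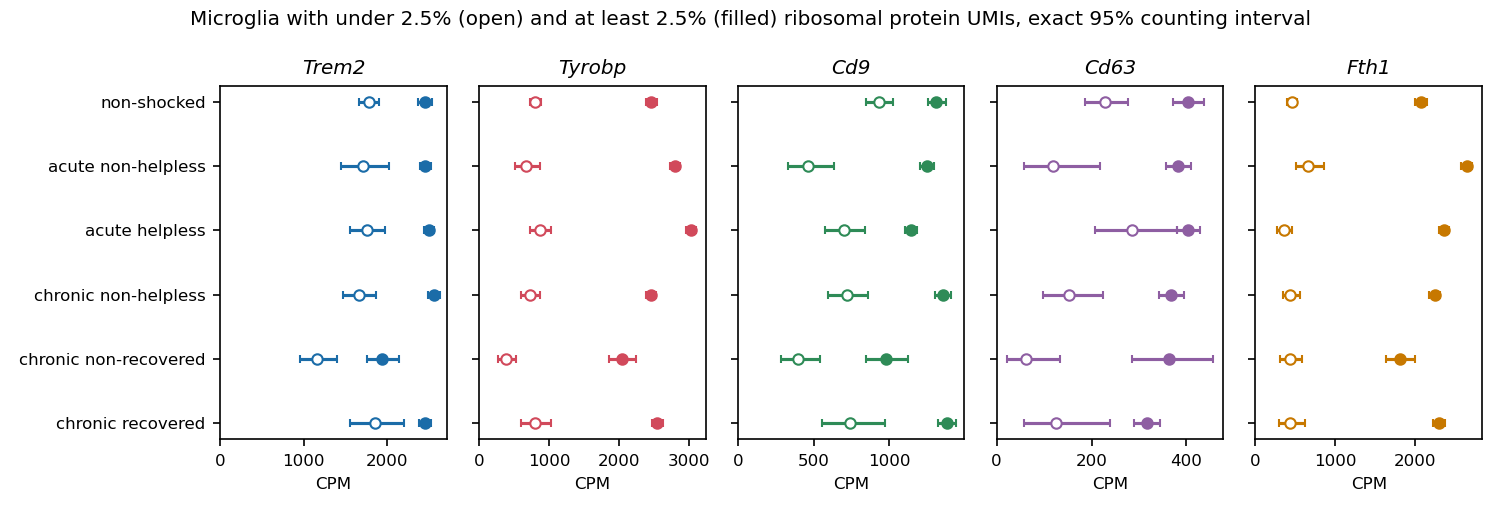
Level of the 5 abundant members (CPM) by library in microglia with under 2.5% and with at least 2.5% ribosomal protein UMIs, with exact 95% Poisson intervals. In every library all 5 genes are lower in the ribosome-poor class, by 1.32-fold at least (Trem2) and 6.70-fold at most (Fth1).

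The deposited clusters held 1 group of microglia in which several members stood together. Cluster 5 had 121 cells in the acute non-helpless and 96 in the chronic non-helpless library and none in the other 4. Since clusters were drawn from the same genes, its values are a description. Compared with the other microglia of its library, Cd63 was 2.17-fold and 2.75-fold higher, Fth1 1.66-fold and 1.71-fold, and Cd9 1.39-fold and 1.28-fold. Tyrobp was at 1.32 (1.24 to 1.40) and 1.10 (1.02 to 1.18), and Trem2 was near level, at 1.04 and 0.981. Cluster 5 cells were shallower, with medians of 2877 against 3907.5 UMIs in the acute and 3563.5 against 4433 in the chronic non-helpless library. Axl, with 15 UMIs in cluster 5 and 7 elsewhere in the acute non-helpless library, was 10.9-fold higher per UMI total (4.20 to 31.7), and with 12 and 5 in the chronic one 12.5-fold (4.10 to 45.3). Cst7, with 20 and 16 and with 13 and 20 UMIs, was 6.39-fold (3.14 to 13.2) and 3.39-fold (1.55 to 7.15) higher. Of the 6 other early-step genes 2 and 3 were at least 1.5-fold higher in these libraries, and of 15 measured other late-step genes 7 in each, with 0 as much lower. Of all measured genes 4.77% and 9.29% were as much higher and 18.2% and 13.5% lower. Apoe was 5.67-fold and 5.01-fold higher and Lpl, the lipoprotein lipase gene, 6.57-fold and 9.85-fold. Ctsd, the cathepsin D gene, was at 0.909 and 0.913, Serpine2, a protease inhibitor gene, at 0.979 and 0.863, and Ctsl, the cathepsin L gene, at 1.12 and 1.05. P2ry12, a homeostatic purine receptor, was at 0.785 and 0.802 of its level in the rest. The 7 markers of border macrophages, which also express Apoe and Axl, summed to 40.4 CPM in cluster 5 against 5.27 in the other acute non-helpless microglia, and to 108 against 10.6 CPM in the chronic library, with 4 and 6 of the 7 detected and Lyve1 at 0. These sums rested on 15 and 37 UMIs in cluster 5, and the part of border macrophages in the values above was not tested.

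Because that cluster exists in 2 libraries only, cells were also divided in every library by Apoe, a lipid carrier gene of the early step that is not among the 9. After thinning to 1000 UMIs, 174 of 2600 microglia held at least 2 Apoe UMIs, and 236 held exactly 1. This division was chosen after the data were seen. Apoe-rich cells made up 7.39% of microglia in the non-shocked (34 cells), 6.05% in the acute non-helpless (34), 8.89% in the acute helpless (56), 6.06% in the chronic non-helpless (30), 5.68% in the chronic non-recovered (5) and 4.11% in the chronic recovered library (15; 2.32 to 6.69).

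Cd63 was higher in Apoe-rich cells of 5 of 6 libraries. Non-shocked microglia had 864 against 326 CPM. It stood at 1028 against 323 in acute non-helpless, 926 against 348 in acute helpless, 806 against 323 in chronic non-helpless and 478 against 301 in chronic recovered microglia. The ratios were 2.65 (2.16 to 3.23), 3.18 (2.67 to 3.78), 2.66 (2.28 to 3.09), 2.50 (2.00 to 3.09) and 1.59 (1.13 to 2.19). Genes at least 1.5-fold higher made up 13.8%, 10.7%, 7.86%, 15.6% and 19.0% of all measured genes in these libraries, and 2.76%, 5.81%, 2.05%, 4.35% and 6.28% of those of at least 200 CPM. In the non-recovered library, with 5 Apoe-rich cells and 43.9% of measured genes as much higher (37.5% of those of at least 200 CPM), Cd63 had 1 UMI in them.

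Axl was concentrated in the same cells. At least 1 UMI was seen in 23 of 174 Apoe-rich microglia (13.2%, 8.57 to 19.2) and in 34 of the 2426 others (1.40%, 0.972 to 1.95). Median depths were 3664.5 to 5303 UMIs in the first and 3659 to 4609 in the second over the 5 libraries other than the non-recovered one. The levels were 41.8 against 4.77 CPM in non-shocked mice, 69.4 against 5.23 in acute non-helpless, 26.2 against 2.01 in acute helpless, 56.4 against 4.99 in chronic non-helpless and 35.0 against 4.28 in chronic recovered microglia. The ratios, 8.76, 13.3, 13.02, 11.3 and 8.17 (1.36 to 35.8 for the last, from 3 against 7 UMIs), each had an interval above 1. In the non-recovered library the 3 Axl UMIs lay outside the Apoe-rich cells.

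Of the other members, Fth1, Cd9, Trem2 and Tyrobp followed the division less than Cd63 or not at all. Cst7, Spp1 and Igf1 had few UMIs. Fth1 was 1.37-fold, 1.499-fold, 1.40-fold, 1.23-fold and 1.25-fold higher in Apoe-rich cells of the same 5 libraries, in the order given for Cd63. Without cluster 5 Fth1 stood at 1.2994 (1.13 to 1.48) in acute non-helpless microglia and turned to 0.804 (0.654 to 0.979) in chronic non-helpless ones. Cd9 was 1.56-fold, 1.504-fold, 1.43-fold and 1.43-fold higher in the first 4 and at 0.861 (0.698 to 1.05) in recovered microglia; without cluster 5 it was 1.32-fold and 1.24-fold higher in the acute and chronic non-helpless libraries. Trem2 lay between 0.846 and 1.12 in these libraries and Tyrobp between 0.860 and 1.28. In the non-recovered library, with 12 Trem2 UMIs in Apoe-rich cells, Trem2 was at 0.547 (0.281 to 0.965). Cst7 was higher beyond counting error in non-shocked (8.76-fold) and acute non-helpless (5.84-fold; without cluster 5 3.27, 0.361 to 14.2) microglia, and none of its 12 UMIs in recovered microglia lay in Apoe-rich cells. Spp1 was found in 5 (2.87%) and Igf1 in 8 (4.60%) Apoe-rich cells, against 0.289% and 0.371% of the others. These shares rested on 6 against 10 Spp1 UMIs and on 10 against 9 Igf1 UMIs. P2ry12 was lower in all 6 libraries, at 0.410 to 0.846 of its level in the other cells.

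Markers of border macrophages moved with this division too in some libraries, but in few cells. The 7 markers summed to 118 against 8.95 CPM in non-shocked mice, 82.0 against 5.71 in acute non-helpless, 61.2 against 20.1 in acute helpless, 290.1 against 9.98 in chronic non-helpless and 0 against 5.50 in recovered microglia. In non-shocked Apoe-rich cells all 11 Mrc1 and all 5 Ms4a7 UMIs lay in 1 cell each. In chronic non-helpless ones Pf4 (10 UMIs) and Cd163 (6) were in 1 of 30 cells each, and Mrc1 (11) in 2. In acute non-helpless ones F13a1 (7) was in 1 of 34 cells, and in acute helpless ones Mrc1 (14) was in 6 of 56. Lyve1 was at 0 in all microglia, and Cd163 in those of all libraries but the chronic non-helpless one. Without the 98 cells that held any UMI of these markers, Cd63 was still 2.72-fold, 3.25-fold, 2.72-fold, 2.31-fold and 1.57-fold higher, and Axl 9.98-fold, 14.2-fold, 13.5-fold, 11.5-fold and 7.96-fold. Without cluster 5, Cd63 was 2.63-fold higher in acute non-helpless and 1.68-fold in chronic non-helpless microglia, from 14 and 16 Apoe-rich cells, and Axl 17.2-fold in both, from 3 and 2 UMIs in those cells.

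Sequences before a transcript start of Cd63 and of Axl, which stood apart in Apoe-rich cells, are shown with that of Trem2, which did not. Each is the 250 bases before a RefSeq transcript start in GRCm38.p6, written 5′ to 3′ on the gene's strand, and capitals mark GAGGAA, the core of PU.1-type sites, or its reverse complement TTCCTC. The windows are chr10:128909095-128909344 (+), chr7:25788734-25788983 (-) and chr17:48346151-48346400 (+). By the gene spans given above, the Cd63 window and part of the Axl window lie inside the gene. The Trem2 window lies before its gene.
Cd63: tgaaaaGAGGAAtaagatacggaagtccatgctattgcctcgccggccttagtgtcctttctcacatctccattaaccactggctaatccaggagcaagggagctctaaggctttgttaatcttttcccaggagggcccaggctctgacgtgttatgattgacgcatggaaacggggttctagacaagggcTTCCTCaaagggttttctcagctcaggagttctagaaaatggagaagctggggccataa
Axl: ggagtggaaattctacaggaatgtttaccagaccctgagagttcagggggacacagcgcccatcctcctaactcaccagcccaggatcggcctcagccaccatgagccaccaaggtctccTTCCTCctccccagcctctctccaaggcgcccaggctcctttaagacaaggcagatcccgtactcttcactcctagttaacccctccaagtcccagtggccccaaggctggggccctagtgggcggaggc
Trem2: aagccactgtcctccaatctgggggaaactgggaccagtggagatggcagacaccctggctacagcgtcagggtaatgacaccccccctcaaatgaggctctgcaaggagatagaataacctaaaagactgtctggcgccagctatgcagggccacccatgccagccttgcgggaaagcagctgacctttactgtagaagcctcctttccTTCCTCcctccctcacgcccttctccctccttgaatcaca
RefSeq windows were found for 8 of the 9 members (10 windows, Tyrobp not among them), and 5 of the 10 held this motif on either strand, those of Axl, Cd63, Igf1, Spp1 and Trem2. It occurred in 23.3% of 32851 windows of the same length. CACGTG, in 6.02% of all windows, and TGACTCA, in 4.46%, were in none of the members' windows. Such matches are descriptions of the sequence only.

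Other genes of the members' pathways were read from 10 lists of 118 genes in all. Between recovered and chronic non-helpless microglia, the pair with the fewest genes apart, 4 of 95 measured list genes (4.21%) were at least 1.5-fold apart, beside 5.67% of all measured genes: Apoe was 2.25-fold lower in recovered microglia (1.96 to 2.58), Lpl 3.08-fold lower (2.11 to 4.61) and Ank, a pyrophosphate exporter, 1.64-fold lower, while Igfbp4, which binds IGF, was 1.83-fold higher. Without the 96 cluster 5 cells of the non-helpless library 1 of the 4 was apart, Igfbp4 at 1.91-fold (1.31 to 2.81). Apoe was then 1.37-fold lower (1.17 to 1.59), Lpl 1.27-fold (0.8000 to 2.03) and Ank 1.37-fold (0.876 to 2.16). Apoe stood at 525 CPM in non-shocked mice, 374 in acute non-helpless, 517 in acute helpless, 376 in chronic non-helpless, 289.5 in non-recovered and 167 in recovered microglia. The recovered library was lowest, and Apoe there was 3.14-fold below non-shocked microglia of batch 3 (2.74 to 3.59).

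In acute non-helpless against batch 2 non-shocked microglia 19.7% of all measured genes were at least 1.5-fold higher and 35.8% lower. Of the 6 other early-step genes, 2 were higher and 0 lower there, B2m (1.86-fold) and Lyz2 (4.15-fold). In non-recovered against recovered microglia 2 were higher and 1 lower: Lyz2, the lysozyme gene that neutrophils and monocytes also express, was 4.91-fold higher, Apoe 1.73-fold higher and B2m 1.79-fold lower, beside 25.0% of all measured genes higher and 11.5% lower. The neutrophil genes that stand out in that library, as given above, moved with Lyz2, and their part was not tested. Of the 14 measured of 20 other late-step genes, 1 was higher and 4 lower in the same comparison, Ctsl (cathepsin L) by 1.66-fold. In non-recovered against chronic non-helpless microglia 0 were higher and 6 lower, beside 22.7% and 10.9% of all measured genes. Without cluster 5 of the non-helpless library 3 were lower, beside 10.4%. Between the acute libraries 0 of 12 measured late-step and 0 of 6 early-step genes were apart, beside 15.6% of all measured genes. Without cluster 5 of the acute non-helpless library 1 and 2 were higher in acute helpless microglia, beside 7.56% of all measured genes. Among them were Apoe, 2.44-fold (2.18 to 2.73), and Lpl, 1.70-fold (1.21 to 2.42).

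Few homeostatic genes were apart outside the comparison with batch 2 non-shocked cells. Of 25 measured, 0 were apart in chronic non-helpless or recovered microglia against non-shocked batch 3, beside 14.5% and 14.0% of all measured genes, and 0 between these chronic libraries, beside 5.67%. In acute helpless microglia Serinc3 was 3.35-fold lower than in acute non-helpless ones, and Csf1r, the CSF1 receptor gene, was 2.15-fold lower than in non-shocked ones. Csf1r was low in both acute libraries, at 3579 CPM in helpless and 4596 in non-helpless microglia. Non-shocked microglia had 7711 CPM of it (5641 in batch 2). Acute helpless cells share no batch with these libraries. Against batch 2 non-shocked microglia 4 were higher and 5 lower in acute non-helpless cells, beside 19.7% and 35.8% of all measured genes. Cst3 (cystatin C) was 1.66-fold lower in non-recovered than in recovered microglia.

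Partners of Axl, Spp1 and Fth1 were read from 3 of the lists. Between acute helpless and acute non-helpless microglia, 1 of 4 measured genes of AXL-family receptors and ligands was higher and 2 lower, 2 of 5 osteopontin receptor genes were higher and 0 lower, and 2 of 10 iron handling genes were higher and 3 lower, beside 7.90% of all measured genes higher and 7.72% lower. Between recovered and chronic non-helpless microglia 0 genes of these lists were apart, beside 5.67% of all measured genes. Gas6, the ligand of AXL, was 1.80-fold higher in acute helpless microglia and Pros1, protein S, 2.296-fold lower. Itgb5, an integrin subunit that binds osteopontin, stood at 1030 CPM in non-shocked, 574 in acute non-helpless and 1346 in acute helpless microglia. Chronic non-helpless, non-recovered and recovered microglia had 426, 1017 and 372 CPM of it. Itgb5 was thus 2.34-fold higher in acute helpless than in acute non-helpless microglia and 2.73-fold higher in non-recovered than in recovered ones. Pcbp1, a chaperone that delivers iron to ferritin, was 4.94-fold and 4.03-fold higher in these comparisons. Pcbp1 stood 4.21-fold lower in chronic non-helpless and 4.51-fold lower in recovered than in batch 3 non-shocked microglia. Inside the non-shocked library, however, Pcbp1 was at 86.0 CPM in batch 2 and at 405 CPM in batch 3. Ftl1, the ferritin light chain, was 2.15-fold higher in acute non-helpless than in batch 2 non-shocked microglia, beside Fth1 at 2.51-fold.

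The genes whose pattern over the 6 libraries, with non-shocked split by batch, was most like a member's were found among 3641 genes by the root mean square difference of centred log2 CPM over these 7 units. For Trem2 they were Arpc4 (0.040), Ctss (0.047) and Tpi1 (0.052), for Tyrobp Sfr1 (0.052), Rpl8 (0.061) and Tnfaip8l2 (0.066), and for Cd9 Atp6v1d (0.073), Snx10 (0.096) and Vdac3 (0.098). For Cd63 they were Alg5 (0.081), Ctsh (0.087) and Npc2 (0.095). All 3 nearest Fth1 were ribosomal protein genes, Rpl10 (0.049), Rpl13 (0.052) and Rpl9 (0.054). The likeness rests on units that differ in depth and in ribosomal share.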

How the data were processed

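The authors deposited raw UMI counts per gene and cell, with cell type, cluster and batch for each cell. Cell Ranger 2.2.0, Seurat 2.3.4 and the build mm10 are named per the submitters' processing notes. The labels do not say how cells were filtered, clustered, typed or checked for doublets, nor what defines a batch. No doublet caller was run.

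UMIs were summed over the deposited microglia of each library and divided by their total (303934 to 2711534 UMIs). Genes with a mean of at least 20 CPM over both libraries were measured, and at least 1.5-fold counted as apart. Intervals are exact at 95%: Poisson for levels, Clopper-Pearson for shares, conditional for ratios. A count of 0 was given 3 counts as its limit. UMIs of a 5′ kit were not divided by length, so levels are not ranked between genes. The scripts (Python 3.11.15, numpy 2.4.6, scipy 1.17.1, pandas 2.3.3) were tested on simulated data.

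The members and lists were chosen with earlier results of these data known. All 9 members are named, as are, from each list and comparison, genes from among the 2 farthest apart in each direction with at least 30 UMIs in the higher library, and the 3 genes most like each member averaging at least 50 CPM. Apoe and Lpl levels, cluster 5 and the Apoe division were chosen after values were seen.

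Alternatives were size factors, equal cell weights, thinning to 1000 UMIs, other thresholds, filters on cells, and other non-shocked cells as the reference.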

Additional observations from a re-analysis of the deposited data

Results flagged for a closer look

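Tyrobp went in opposite directions in the acute and the chronic contrast of helpless with non-helpless mice. It was 1.06-fold higher in acute helpless than in acute non-helpless microglia, and in chronic non-recovered microglia it was at 0.651 of its level in chronic non-helpless ones. The acute ratio was under 1.5-fold, and the acute libraries share no batch. Among microglia with at least 2.5% ribosomal UMIs, Tyrobp stood at 2037 CPM in non-recovered and 2449 CPM in chronic non-helpless microglia. With 1 library per group the difference was not tested.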

How the results depend on the processing

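No paired analysis was possible because each group has 1 library, and for the same reason no replicate could be left out. Of 45 member ratios, 11 were at least 1.5-fold. Over 104 alternative values of these, 16 fell under 1.5-fold and 1 changed direction: Cd9 in acute non-helpless microglia had a log2 ratio of -0.0043 against non-shocked cells of both batches. Checking markers, requiring 1000 UMIs, under 5% mitochondrial UMIs, or totals without mitochondrial and ribosomal genes kept all 45 ratios within their intervals.

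Counts of members apart changed as follows, given without the share of all measured genes apart under each setting. Whether the members moved more than other genes with the setting was not tested. Restricting cells to at least 2.5% ribosomal UMIs gave 0 for non-recovered against recovered, chronic non-helpless and non-shocked microglia, and a 2-fold threshold also gave 0 in all 3. Acute helpless against non-shocked gave 2 with size factors, 2 with equal cell weights, 1 after thinning and 4 against batch 2 alone. Acute non-helpless against non-shocked gave 1 against both batches and 2 at 2-fold. Non-recovered against non-shocked gave 4 with size factors, 4 with equal weights and 2 after thinning. At 5 CPM, low genes added 1 between the acute libraries, 1 between recovered and chronic non-helpless, 1 in chronic non-helpless against non-shocked, and gave 2 in acute helpless against non-shocked. At 50 CPM, and also without cluster 5, 1 list gene in place of 4 differed between recovered and chronic non-helpless microglia. Without thinning, 1.76% of acute non-helpless and 1.00% of chronic non-helpless microglia held at least 2 late genes, against 0 with it. Size factors shifted all genes by -0.21 (log2) in acute helpless against non-shocked, -0.36 in acute non-helpless against batch 2, and 0.21, 0.17 and 0.13 in non-recovered against recovered, chronic non-helpless and non-shocked microglia.

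Depth limits the late genes: 16 Spp1 and 19 Igf1 UMIs in all microglia cannot order the libraries.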
